A study of Homo sapiens with 16 samples.

Results

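PLAU, PLAT, PLAUR, SERPINB2 and SERPINE2 encode the plasminogen activators, the receptor of urokinase and inhibitors of both activators. These 5 genes were taken by symbol from the 42351 genes of the deposited count table, and all 5 were among the 15067 genes with enough counts to be tested. RNA had been sequenced from cells expressing wt MET, labelled A549 (a lung adenocarcinoma line), and from cells expressing MET∆14, labelled NCI-H596 (a lung adenosquamous carcinoma line). MET is the receptor of hepatocyte growth factor (HGF), and MET∆14 lacks the part of its juxtamembrane domain encoded by exon 14. Both lines had been serum-deprived and were collected at 0 h (no HGF) or after 3, 6 or 12 h of HGF, as 2 biological replicates of each of the 8 conditions, 16 libraries in all. The published work names EKVX, another lung adenocarcinoma line, as its source of wt MET, so the identity of the wt MET line rests on the labels. Each form of MET was present in 1 cell line, so the form of MET and every other difference between the lines cannot be told apart. The untreated cells were collected at 0 h alone, so a change over time without HGF and a change caused by HGF cannot be told apart either.

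Urokinase (PLAU) and tissue plasminogen activator (PLAT) are secreted serine proteases that cleave plasminogen to plasmin, a protease that dissolves fibrin and degrades extracellular matrix. The urokinase receptor (PLAUR, or uPAR) is anchored in the membrane by a lipid and concentrates urokinase at the cell surface. Both activators are held in check by serpins, among them SERPINB2 (plasminogen activator inhibitor 2) and SERPINE2 (protease nexin 1). The system is best known for its part in cell migration and invasion, and HGF is itself activated by proteolysis and causes epithelial cells to scatter.

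The 5 genes lie apart in the genome. In hg38, PLAU (ENSG00000122861) spans chr10:73909177-73917496 on the plus strand and PLAUR (ENSG00000011422) chr19:43646095-43670547 on the minus strand. SERPINB2 (ENSG00000197632) spans chr18:63871692-63903888 on the plus strand and SERPINE2 (ENSG00000135919) chr2:223975045-224039318 on the minus strand. Use of strand in counting is not given in the sources used here, and 31.0% of the exonic bases of PLAU are overlapped by the antisense gene C10orf55, whose own counts were 0 to 28 per library. A gene on the same strand, ENSG00000289724, covers 20.0% of the exonic bases of SERPINB2 and has no row in the table. PLAU and SERPINB2 counts are uncertain to the extent that these genes shared reads.

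The sequences before the start sites of SERPINB2, PLAU and PLAUR are shown because these 3 genes moved together over the libraries of the MET∆14 line. Each is the 250 bases upstream of a RefSeq start site (GRCh38.p14), read 5′ to 3′ on the strand of the gene. Windows were searched for 4 of the 5 genes, and PLAT was left out of the search. Capitals mark matches to TGANTCA (the core of AP-1 sites), TATAAA (the TATA box) and GGGCGG (the core of GC boxes), searched on both strands together with TGACGTCA (the full CRE), which had no match in these windows. The windows are chr18:63887455-63887704 (plus strand), chr10:73910882-73911131 (plus strand) and chr19:43670170-43670419 (minus strand).
SERPINB2: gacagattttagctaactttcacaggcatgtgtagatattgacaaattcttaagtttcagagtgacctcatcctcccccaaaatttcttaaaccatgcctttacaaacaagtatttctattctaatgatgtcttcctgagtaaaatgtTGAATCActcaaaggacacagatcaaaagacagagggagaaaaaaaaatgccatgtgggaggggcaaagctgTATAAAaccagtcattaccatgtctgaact
PLAU: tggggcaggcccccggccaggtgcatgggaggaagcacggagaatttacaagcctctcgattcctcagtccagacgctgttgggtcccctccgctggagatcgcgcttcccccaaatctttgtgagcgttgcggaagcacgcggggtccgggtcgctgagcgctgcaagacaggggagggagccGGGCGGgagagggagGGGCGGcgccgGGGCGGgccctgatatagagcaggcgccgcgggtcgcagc
PLAUR: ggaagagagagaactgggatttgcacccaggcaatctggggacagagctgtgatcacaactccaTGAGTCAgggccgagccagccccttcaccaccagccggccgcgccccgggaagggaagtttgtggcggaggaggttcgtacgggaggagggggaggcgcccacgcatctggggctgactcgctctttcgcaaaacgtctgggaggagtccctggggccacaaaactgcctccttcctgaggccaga
The SERPINB2 window held TGAATCA at -102 to -96 and TATAAA at -30 to -25 from the start site, and 37.2% of its bases were G or C. The PLAUR window held TGAGTCA at -186 to -180 and no TATAAA. The PLAU window shown held GGGCGG 3 times, with first bases at -66, -51 and -40, and none of the other motifs. PLAU has another RefSeq start site, whose window (chr10:73910360-73910609) held none of the motifs and is not shown. The windows of SERPINE2 (chr2:224031479-224031728 and chr2:224038641-224038890), also not shown, each held GGGCGG and none of the other motifs. Of the 35116 RefSeq windows of this length, 6.57% held TGANTCA, 1.65% TGACGTCA, 10.7% TATAAA and 42.6% GGGCGG. A match is a run of letters and not evidence of a factor bound there, and a factor may bind outside these windows.

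Total counts were 13226488 to 21970052 per library in the wt MET line and 10158590 to 23909304 in the MET∆14 line. The epithelial markers EPCAM, KRT8, KRT18, KRT19 and CDH1 were summed in CPM (each gene's share of a library, after scaling). The sum was 1737 to 2518 CPM in the wt MET line, led by KRT18, and 2016 to 3227 CPM in the MET∆14 line, led by KRT19. EPCAM and CDH1 were low in the wt MET line, at 2.43 and 9.26 CPM at 0 h, against 36.2 and 104 CPM in the MET∆14 line. The 5 squamous markers summed to at most 3.10 CPM in the wt MET line and to 2348 to 3336 CPM in the MET∆14 line, led by KRT5. CDKN2A, which A549 cells are known to lack, had no count in any wt MET library and 86.0 to 157 CPM in the MET∆14 line. MTAP, the other gene of this check, was low but not absent in the wt MET line, at 0.33 to 1.55 CPM (at most 23 counts). It was at 57.6 to 138 CPM in the MET∆14 line. Whether EKVX cells lack either gene was not tested. Markers of other cell types that express plasminogen activators were low or partial. The 7 fibroblast markers summed to 11.5 to 19.8 CPM in the wt MET line (3 of 7 at no more than 3 counts, DCN at 0) and to 187.5 to 347 CPM in the MET∆14 line (4 of 7 at no more than 3 counts, LUM at 0, COL3A1 leading), and the part of these cells' genes in the results was not tested. The endothelial markers summed to at most 1.99 CPM in every library. The 6 monocyte and macrophage markers, led by CD68, summed to 41.0 to 53.0 CPM in the wt MET line (3 of 6 at no more than 3 counts, PTPRC at 0) and to 116 to 179 CPM in the MET∆14 line (2 of 6 at no more than 3 counts). The replicates of MET∆14 at 12 h differed from each other far more than any other pair, with a chi-square per degree of freedom of 34.5 over genes against 2.79 to 9.95 in the other 7 conditions. The calls of the 5 genes at 12 h against 0 h in the MET∆14 line held without either replicate, with log2 changes without replicate 1 or replicate 2 of 0.62 or 0.41 for PLAU, -0.93 or -1.30 for PLAT, 0.93 or 0.85 for PLAUR, 2.55 or 1.78 for SERPINB2 and 0.98 or 0.81 for SERPINE2.

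With HGF, all 5 genes changed in the MET∆14 line and 3 changed in the wt MET line. Levels are given as CPM after TMM scaling, and changes as log2 fold changes against 0 h of the same line ± SE, tested with edgeR's quasi-likelihood test and Benjamini-Hochberg adjustment over all 15067 genes at an adjusted p of 0.05. In the MET∆14 line, 5 of 5 genes rose at 3 h, when 15.5% of all genes tested rose, and 5 of 5 rose at 6 h, when 21.6% did. At 12 h, 4 of 5 were still above 0 h (18.3% of all genes) and PLAT was below it (20.1% of all genes). In the wt MET line, PLAUR alone changed at 3 h, when 17.4% of all genes were called in either direction, PLAUR and SERPINE2 at 6 h (34.2%), and PLAUR, SERPINE2 and PLAU at 12 h (35.1%). Over the 3 times together, 5 of 5 genes were called in the MET∆14 line against 54.1% of all genes, and 3 of 5 in the wt MET line against 40.3%. Among the 5, SERPINB2 was nearly undetected in the wt MET line and was not called there. The median of the mean response was 0.85 over the 5 genes in the MET∆14 line and 0.0576 over the 4 genes other than SERPINB2 in the wt MET line, beside -0.05 in both lines over all genes tested. The 5 genes had been chosen with earlier results of these libraries known, so their counts are a description of these genes.

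**Figure D1:**
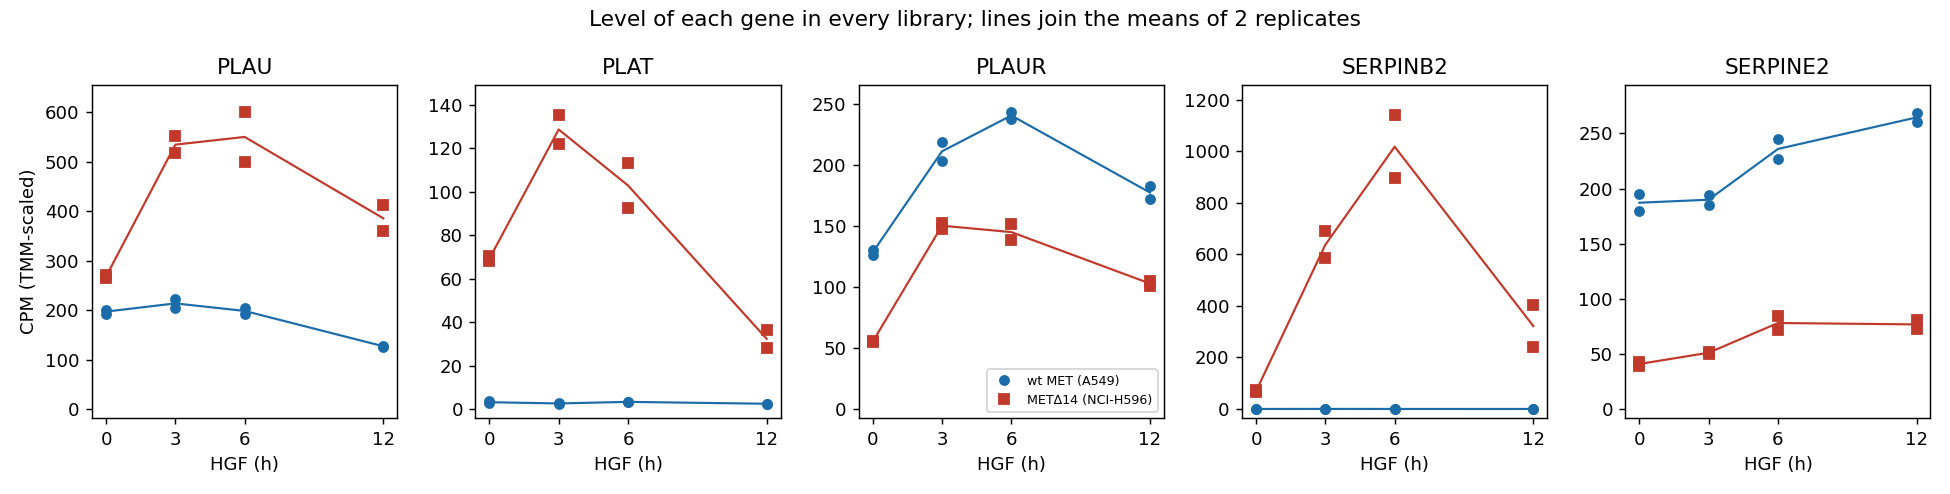
CPM of each gene in each library (vertical axis, linear, its own scale in each panel) against hours of HGF, with circles for the wt MET line, squares for the MET∆14 line and lines through the means of the 2 replicates. PLAU, PLAUR and SERPINB2 were highest at 3 to 6 h in the MET∆14 line, PLAT there was highest at 3 h and lowest at 12 h, and SERPINE2 and PLAUR were higher in the wt MET line at all 4 times.

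PLAU, the activator that works at the cell surface, rose at all 3 times in the MET∆14 line, while no rise was called in the wt MET line. The MET∆14 replicates were at 270.25 and 265 CPM at 0 h, 552 and 517 CPM at 3 h, 499.7 and 600.1 CPM at 6 h, and 359.5 and 411 CPM at 12 h. All libraries with HGF lay above both untreated libraries, and those at 3 h and 6 h overlapped. The change was 0.997 ± 0.10 at 3 h (adjusted p = 2.16e-06), 1.04 at 6 h (adjusted p = 8.83e-07) and 0.53 at 12 h (adjusted p = 0.000675). From 6 to 12 h PLAU fell by 0.51 (adjusted p = 0.00249, 18.6% of all genes called in this step), a call lost without MET∆14 6 h replicate 2 (adjusted p = 0.0641).

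PLAU in the wt MET line was at 201 and 193 CPM at 0 h, 223 and 204 CPM at 3 h, 204 and 192 CPM at 6 h, and 125 and 128 CPM at 12 h. Both libraries at 3 h lay above both at 0 h, the libraries at 6 h overlapped with those at 0 h and with those at 3 h, and both libraries at 12 h lay below all the others. The change was 0.12 at 3 h (adjusted p = 0.466) and 0.01 at 6 h (adjusted p = 0.967), and at 12 h PLAU fell by 0.63 ± 0.10 (adjusted p = 0.000218). The response was larger in the MET∆14 line by 0.88 at 3 h (adjusted p = 0.00048, 17.4% of all genes called for this difference), by 1.03 at 6 h (adjusted p = 6.12e-05, 30.2% of genes) and by 1.16 at 12 h (adjusted p = 4.07e-05, 24.0% of genes). Over the 3 times the difference of the responses had an adjusted p of 5.66e-05, when 37.6% of all genes were called. Before HGF, PLAU was 0.44 ± 0.10 higher on the log2 scale in the MET∆14 line (adjusted p = 0.00071), as 1 of 5 members that differed between the lines at 0 h, where 80.2% of all genes differed.

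PLAT (ENSG00000104368, chr8:42174718-42207709 on the minus strand), the activator best known for clot lysis, had few counts in the wt MET line and moved in opposite directions early and late in the MET∆14 line. The MET∆14 libraries had 70.4 and 67.9 CPM at 0 h, 135 and 122 CPM at 3 h, 92.6 and 113 CPM at 6 h, and 28.2 and 36.3 CPM at 12 h. None of the 4 times overlapped with another, and the order from high to low was 3 h, 6 h, 0 h and 12 h. PLAT rose by 0.89 at 3 h (adjusted p = 3.56e-05) and 0.58 at 6 h (adjusted p = 0.00101), and was lower than at 0 h by 12 h, with a change of -1.11 (adjusted p = 8.47e-06). The step from 6 to 12 h was -1.69 (adjusted p = 1.75e-06), while that from 3 to 6 h was -0.32 (adjusted p = 0.102, but 0.0104 and 0.00822 without MET∆14 12 h replicate 1 or replicate 2). Because the rise and the fall offset each other, the mean over the 3 times was only 0.12, although the test of any change over time gave an adjusted p of 7.28e-08.

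All 8 wt MET libraries held 30 to 56 counts of PLAT, or 2.38 to 3.55 CPM, and no change against 0 h was called there (-0.28, 0.08 and -0.37 at 3, 6 and 12 h, adjusted p = 0.485, 0.846 and 0.246). At 0 h PLAT was 4.47 ± 0.17 higher in the MET∆14 line on the log2 scale, a 22.2-fold difference (adjusted p = 2.14e-12). The responses of the lines differed over the 3 times (adjusted p = 0.000492). At single times the difference was 1.18 at 3 h (adjusted p = 0.00762, but 0.0695 without wt MET 0 h replicate 1), 0.50 at 6 h (adjusted p = 0.165) and -0.74 at 12 h (adjusted p = 0.0607). The 12 h difference passed the threshold with no filter on low counts (adjusted p = 0.0347), with at least 10 counts required in every library (0.0407) and without MET∆14 12 h replicate 2 (0.00945).

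PLAUR, the receptor, rose at all 3 times in both lines, by more in the MET∆14 line. The wt MET replicates were at 126 and 130.4 CPM at 0 h, 219 and 203 CPM at 3 h, 237 and 243 CPM at 6 h, and 183 and 172 CPM at 12 h. The MET∆14 replicates were at 55.7 and 54.5 CPM at 0 h, 153 and 148 CPM at 3 h, 138 and 152 CPM at 6 h, and 100.4 and 105 CPM at 12 h. In both lines the untreated libraries were below all treated ones, and the 12 h libraries were between the untreated and the 3 h and 6 h libraries. The wt MET line peaked at 6 h, whereas 3 h and 6 h overlapped in the MET∆14 line. Changes at 3, 6 and 12 h were 0.72, 0.91 and 0.47 in the wt MET line (adjusted p = 1.38e-05, 8.42e-07 and 0.0003) and 1.45, 1.40 and 0.90 in the MET∆14 line (adjusted p = 1.02e-08, 6.35e-09 and 1.04e-06). From 6 to 12 h PLAUR fell in both, by 0.44 in the wt MET line (adjusted p = 0.0016, 11.6% of all genes called) and by 0.50 in the MET∆14 line (adjusted p = 0.000596).

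The response of PLAUR in the MET∆14 line exceeded that in the wt MET line by 0.73 at 3 h (adjusted p = 0.000305), 0.49 at 6 h (adjusted p = 0.00313) and 0.43 at 12 h (adjusted p = 0.0101, but 0.0552 without wt MET 12 h replicate 2). At 0 h the level ran the other way, 1.22 ± 0.08 lower on the log2 scale in the MET∆14 line (adjusted p = 1.11e-09). The highest PLAUR level in the MET∆14 line, 153 CPM, was above the untreated wt MET libraries and below all 6 treated ones.

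**Figure D2:**
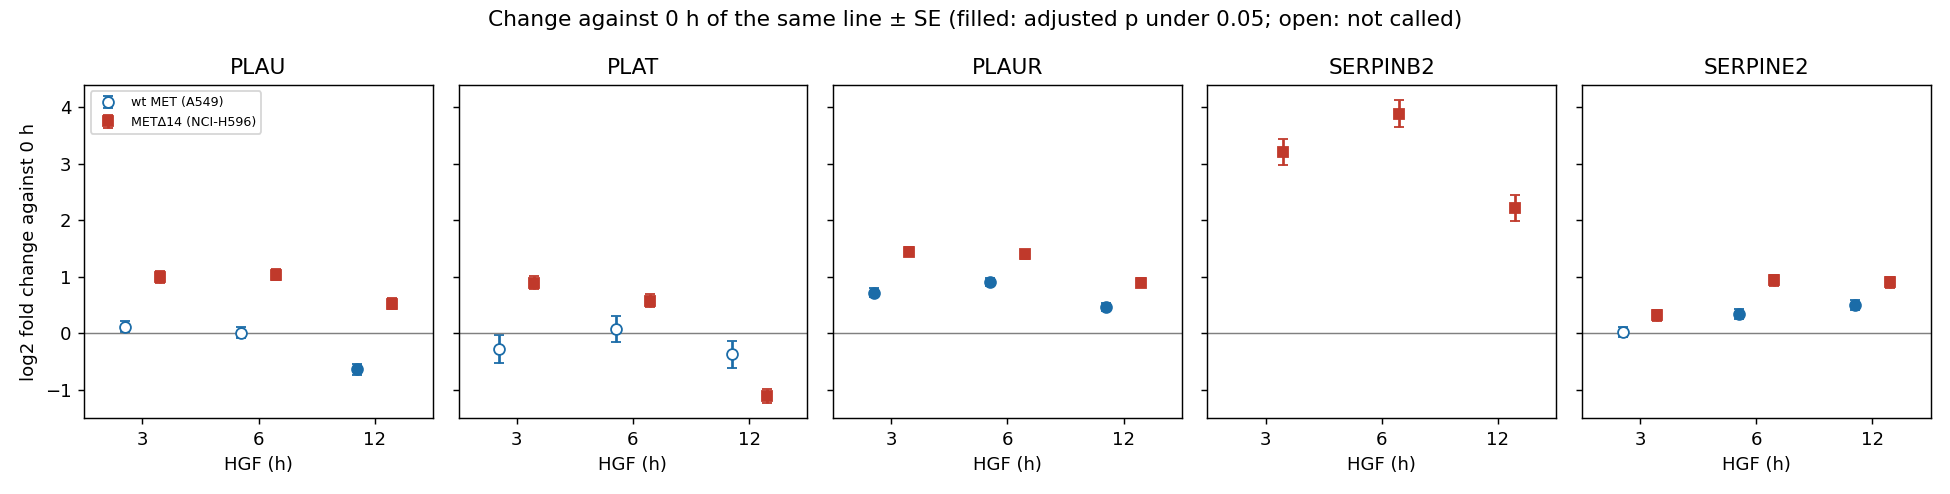
log2 fold change against 0 h of the same line (vertical axis) at 3, 6 and 12 h of HGF for each gene, with bars of ± SE from the model, filled where the adjusted p was under 0.05 and open where it was not. SERPINB2 is plotted in the MET∆14 line alone, where it rose by 3.21, 3.89 and 2.22, the largest changes plotted. PLAT in the MET∆14 line crosses from 0.89 at 3 h to -1.11 at 12 h.

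SERPINB2, an inhibitor of urokinase found mostly inside the cell and partly secreted, had the largest log2 changes of the 5 genes in the MET∆14 line and was nearly undetected in the wt MET line. The MET∆14 libraries had 64.8 and 72.8 CPM at 0 h, 689 and 585 CPM at 3 h, 894 and 1140.2 CPM at 6 h, and 239 and 404 CPM at 12 h. The 4 times did not overlap, in the order 6 h, 3 h, 12 h and 0 h. Of the 15067 genes tested, SERPINB2 ranked 3157 by mean CPM at 0 h, 162 at 3 h, 92 at 6 h and 442 at 12 h. The changes against 0 h were 3.21 ± 0.24 at 3 h (adjusted p = 4.37e-07), 3.89 at 6 h (adjusted p = 5.96e-08) and 2.22 at 12 h (adjusted p = 9.11e-06). The fall from 6 to 12 h was 1.66 in size (log2 change of -1.66, adjusted p = 0.000306). The step from 3 to 6 h was 0.68 and missed the threshold (adjusted p = 0.0662). It passed with no filter on low counts (6.94e-09) and without MET∆14 12 h replicate 1 or replicate 2 (0.00615 and 0.00592).

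The wt MET replicates held 0 and 1 counts of SERPINB2 at 0 h, 1 and 5 at 3 h, 3 and 0 at 6 h, and 3 and 0 at 12 h. No change with HGF is given for such counts, and SERPINB2 is counted as tested and not called in the wt MET line. Against a floor of 3 counts per library, the mean level in the MET∆14 line was at least 317-fold higher at 0 h, 5039-fold higher at 6 h and 1594-fold higher at 12 h. At 3 h the 6 wt MET counts came to 0.219 CPM, with an upper exact Poisson 95% limit of 0.478 CPM that covers counting error only, beside 637 CPM in the MET∆14 line.

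SERPINE2, which inhibits thrombin as well as both activators, rose in both lines, with its largest change at 12 h in the wt MET line and at 6 h in the MET∆14 line. The wt MET replicates were at 179 and 195 CPM at 0 h, 185 and 194 CPM at 3 h, 227 and 245 CPM at 6 h, and 261 and 269 CPM at 12 h. The MET∆14 replicates were at 39.2 and 42.4 CPM at 0 h, 49.9 and 52.1 CPM at 3 h, 71.9 and 84.1 CPM at 6 h, and 72.5 and 80.9 CPM at 12 h. In the wt MET line the 3 h libraries overlapped with the untreated ones and the level was highest at 12 h, while in the MET∆14 line 6 h and 12 h overlapped. Changes in the wt MET line were 0.02 at 3 h (adjusted p = 0.921), 0.33 at 6 h (adjusted p = 0.00951) and 0.50 at 12 h (adjusted p = 0.00059). The 6 h call was lost without wt MET 0 h replicate 1 (0.0825) or 6 h replicate 2 (0.0805).

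In the MET∆14 line SERPINE2 changed by 0.32 at 3 h (adjusted p = 0.0191), 0.94 at 6 h (adjusted p = 1.69e-06) and 0.91 at 12 h (adjusted p = 4.71e-06). It was the 1 member whose rise between 3 and 6 h was called (0.61, adjusted p = 0.00102, 9.77% of all genes called in this step). The 3 h call was lost without MET∆14 0 h replicate 1 (0.156), 3 h replicate 1 (0.0583) or 3 h replicate 2 (0.126). At 0 h SERPINE2 was 2.19 lower on the log2 scale in the MET∆14 line (adjusted p = 1.18e-11). The responses differed by 0.30 at 3 h (adjusted p = 0.140), 0.60 at 6 h (adjusted p = 0.00252) and 0.41 at 12 h (adjusted p = 0.0334), larger in the MET∆14 line. The 12 h difference missed the threshold without wt MET 0 h replicate 2 (0.109), wt MET 12 h replicate 1 (0.109) or replicate 2 (0.0778), or MET∆14 0 h replicate 1 (0.144) or replicate 2 (0.0538), while that at 3 h passed it without MET∆14 12 h replicate 1 (0.0475). Over the 3 times that difference had an adjusted p of 0.0115 and was the least secure of the 4 that could be tested. It missed the threshold without wt MET 0 h replicate 2 (0.0588), wt MET 6 h replicate 1 (0.0574), MET∆14 0 h replicate 1 (0.0859) or MET∆14 6 h replicate 2 (0.0540).

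Across the 8 libraries of the MET∆14 line, log2 CPM of PLAU, PLAUR and SERPINB2 moved together, with Pearson's r of 0.982 between PLAU and PLAUR, 0.981 between PLAU and SERPINB2 and 0.975 between PLAUR and SERPINB2. PLAT followed them less closely and had an r of -0.286 with SERPINE2. The r of PLAU with SERPINE2 in the wt MET line was -0.806. These are descriptions over 8 libraries at 4 times, in which every pair of genes shares its libraries and their depth. Of the 10112 genes of the MET∆14 line that averaged 3 or more log2 CPM, those whose pattern was most like that of SERPINB2 were BYSL (r = 0.999), TMEM158 and ODC1. For PLAUR they were ST3GAL1 (r = 0.999), WDR43 and GJB2, and for PLAU they were HRH1 (r = 0.994), LRRC8A and SCYL2. PLAT was followed most closely by TPRA1 (r = 0.997), MKX and IER2, and SERPINE2 by QSOX1 (r = 0.996), SDHA and PRMT3. In the wt MET line, over 9360 genes, the nearest were AGRN for PLAU (r = 0.991), LTBP2 for PLAUR (r = 0.995) and IL4R for SERPINE2 (r = 0.991), and for PLAT, at its low counts, POLR2J3 (r = 0.918).

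Levels of different genes were compared per length, as RPKM over the union of each gene's exons. In the untreated MET∆14 line PLAU was highest of the 5 genes at 90.8 RPKM, followed by SERPINB2 at 25.1, PLAUR at 12.4, PLAT at 8.90 and SERPINE2 at 4.56 RPKM. At 6 h SERPINB2 stood at 371 RPKM, above PLAU at 186, PLAUR at 32.5, PLAT at 13.2 and SERPINE2 at 8.71 RPKM. In the untreated wt MET line the levels were 66.7 RPKM for PLAU, 28.8 for PLAUR, 20.9 for SERPINE2 and 0.401 for PLAT. The order depends on the length used for genes with long or many transcripts. With the canonical transcript, PLAUR at 93.8 RPKM was above PLAU at 84.0 in the untreated wt MET line, where SERPINE2 at 84.1 was level with PLAU. With that length PLAUR at 40.3 was above SERPINB2 at 36.1 in the untreated MET∆14 line, and SERPINE2 at 35.0 was above PLAT at 33.6 there at 6 h. With the longest transcript, PLAUR at 79.7 was above PLAU at 74.0 in the untreated wt MET line. PLAUR at 34.2 was then also above SERPINB2 at 31.9 in the untreated MET∆14 line.

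**Figure D3:**
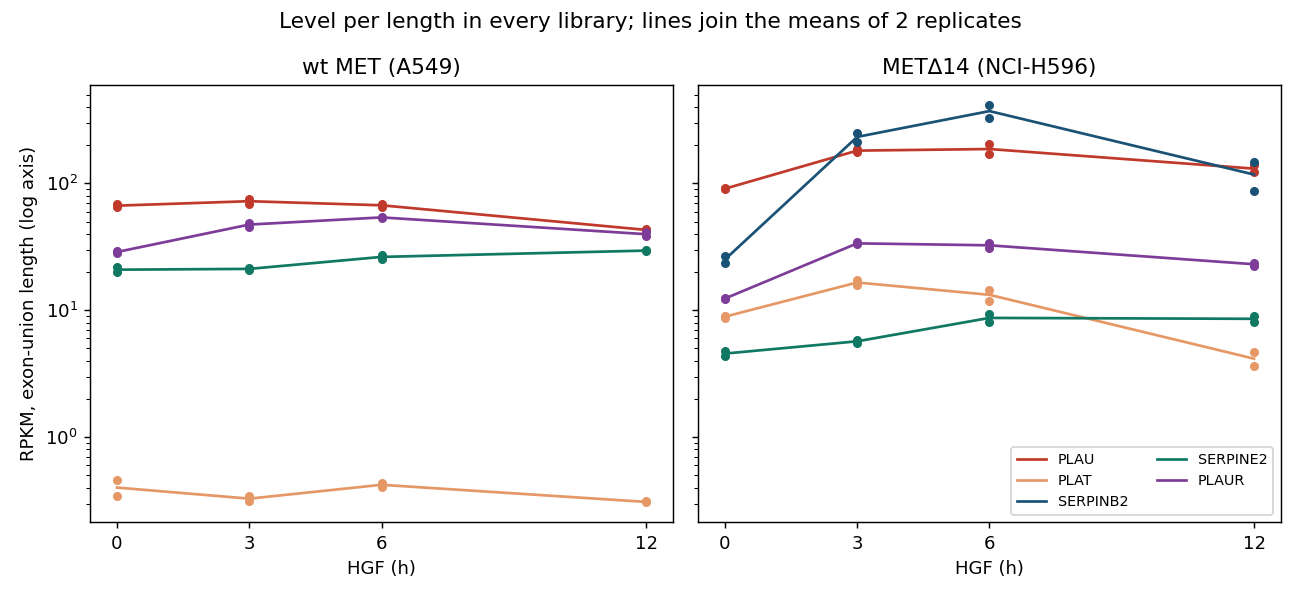
RPKM over the exon union (vertical axis, log scale) against hours of HGF in the wt MET line (left) and the MET∆14 line (right), with a point for each library and lines through the means of the 2 replicates. With this length PLAU led in the untreated wt MET line (66.7 RPKM). In the MET∆14 line SERPINB2 went from 25.1 RPKM at 0 h, below PLAU, to 371 RPKM at 6 h, above it. SERPINB2 is not drawn in the wt MET line, where it had 0 to 5 counts per library.

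Of 25 other genes of the plasminogen system, 20 could be tested, and SERPINB8 was called higher and LRP1 lower in both lines. Called in the wt MET line were 6 of 20, beside 40.3% of all genes (1 higher, SERPINB8, and 5 lower, VTN, LRP1, SERPINB6, THBD and MRC2). In the MET∆14 line 6 of 20 were called, beside 54.1% of all genes (4 higher, SERPINB8, THBD, CTSL and ANXA2, and 2 lower, LRP1 and LRPAP1). Genes given here without a value lie outside the rule for named genes and are listed only to account for the counts. The median mean response of the genes above 5 counts was -0.21 in the wt MET line and 0.01 in the MET∆14 line, beside -0.05 over all genes in both. The plasminogen gene PLG itself and SERPINA5, CPB2, KLKB1 and HPN had at most 8 counts in any library and were not tested. The number called moved with single libraries. In the wt MET line it was lower without wt MET 0 h replicate 1 and higher without MET∆14 12 h replicate 1. In the MET∆14 line it was lower without MET∆14 0 h replicate 1 and higher without MET∆14 12 h replicate 2. The share of all genes called moved the same way in each of these settings.

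SERPINB8, a serpin that inhibits furin, rose in both lines, by 1.19 ± 0.07 in the wt MET line and 0.84 ± 0.08 in the MET∆14 line, from 71.9 to 183 CPM between 0 and 12 h in the former and from 20.3 to 46.9 CPM between 0 and 3 h in the latter. VTN, an adhesion protein that binds PLAUR, had a mean response of -1.18 ± 0.24 in the wt MET line (adjusted p = 0.000562), where it went from 5.05 to 1.02 CPM. LRP1, the receptor that clears complexes of urokinase with its inhibitors, had a mean response of -0.69 ± 0.17 in the wt MET line (adjusted p = 0.00723, but 0.0507 without wt MET 0 h replicate 1), from 35.3 to 16.7 CPM between 0 and 12 h. It had a mean response of -0.57 ± 0.15 in the MET∆14 line (adjusted p = 0.0124), a call that was lost without MET∆14 0 h replicate 1 (0.0611) and with that line fitted alone (0.0597). THBD, thrombomodulin, which in the wt MET line is given after its values were seen, went from 22.2 to 12.3 CPM between 0 and 3 h in the wt MET line and from 144 to 303 CPM in the MET∆14 line. At 12 h THBD was near its 0 h level in the wt MET line, with 23.4 CPM and an uncalled change of 0.08 (adjusted p = 0.612). It was below its 0 h level in the MET∆14 line, with 105 CPM and a change of -0.45 (adjusted p = 0.0013). Its mean response was -0.43 ± 0.09 in the former (any change, adjusted p = 3.84e-05) and 0.52 ± 0.08 in the latter (any change, adjusted p = 1.94e-08), with an adjusted p of 6.9e-08 for the difference.

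**Figure D4:**
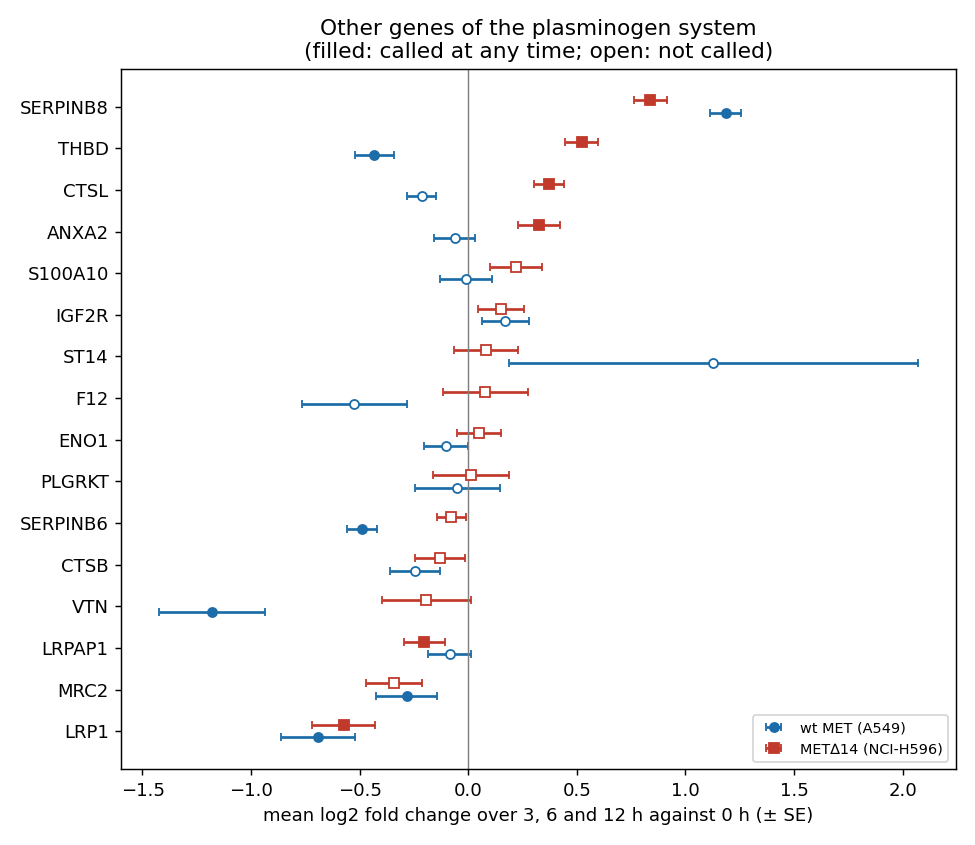
Mean log2 fold change over 3, 6 and 12 h against 0 h (horizontal axis, ± SE from the model) of the 16 other plasminogen system genes with more than 5 counts in some library of each line, filled where called at any time. SERPINB8 in the wt MET line lies farthest to the right (1.19), VTN in that line farthest to the left (-1.18), and the mean for THBD lies on opposite sides of 0 in the lines.

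SERPINB2 belongs to the clade B serpins, mostly intracellular inhibitors, of which SERPINB5, SERPINB7, SERPINB8, SERPINB13 and others lie on chromosome 18 with it. Of 12 other clade B serpins 8 could be tested, and 4 were called in the wt MET line (2 higher, 2 lower, beside 40.3% of all genes) and 3 in the MET∆14 line (3 higher, beside 54.1% of all genes). SERPINB6 and SERPINB8 are counted here and also among the plasminogen system genes above, so these lists overlap. SERPINB5 (maspin), which had no more than 1 count in any wt MET library, rose in the MET∆14 line by 0.92 ± 0.10 (adjusted p = 2.31e-05), with 80.9 ± 2.13 CPM untreated and 187 ± 17.3 CPM after 3 h of HGF (SD, n = 2). SERPINB9, an inhibitor of granzyme B, rose there by 0.59 ± 0.12 (adjusted p = 5.00e-05), from 3.60 to 7.74 CPM at 3 h. It was also called higher in the wt MET line (0.28, adjusted p = 0.0256), from 72.6 to 91.7 CPM at 12 h. In the wt MET line SERPINB6 fell by 0.49 ± 0.07 (adjusted p = 0.000506) and SERPINB1, an inhibitor of neutrophil elastase, fell by 0.42 ± 0.09 (adjusted p = 0.00889), the latter lost without wt MET 0 h replicate 1 (0.0762). SERPINB3 and SERPINB4 are near-identical copies, and their counts are uncertain. The number called in the wt MET line dropped to 2 without wt MET 0 h replicate 1.

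PLAUR belongs to the family of proteins with the fold shared by uPAR and Ly6, and LYPD5 lies on chromosome 19 with it. Of 14 other family genes 11 could be tested, and 3 were called in the wt MET line (1 higher, 2 lower, beside 40.3% of all genes) and 5 in the MET∆14 line (2 higher, 3 lower, beside 54.1% of all genes). LYPD5 fell in both lines, by 1.19 ± 0.16 in the wt MET line (adjusted p = 3.72e-05) and by 1.05 ± 0.18 in the MET∆14 line (adjusted p = 0.000838), from 10.9 to 2.76 CPM and from 4.92 to 1.91 CPM at 12 h. LYPD1 rose by 0.66 ± 0.14 in the wt MET line (adjusted p = 0.000981) and fell by 1.04 ± 0.23 in the MET∆14 line (adjusted p = 0.00184), where it was at no more than 3.76 CPM on average, and 29.7% of its exonic bases are overlapped by GPR39 on the other strand. LY6E, an interferon-induced member, fell by 0.69 ± 0.18 in the wt MET line (adjusted p = 0.00417). CD59, which blocks the last step of complement, rose by 0.63 ± 0.14 in the MET∆14 line (adjusted p = 0.00299), from 341 to 605 CPM at 6 h.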

How the data were processed

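Polyadenylated RNA had been sequenced on an Illumina platform in 16 libraries. The authors aligned the reads to hg38 with STAR and deposited a table of whole-number counts, 1 row a gene, that had not been normalized. The submitters' processing notes name STAR 2.5.0 and RSEM 1.3.2, with no role for either. RSEM estimates counts, so the deposited counts may be rounded estimates. The annotation version and use of strand are not given in the sources used here. The labels and the published methods give different lengths of serum deprivation, and the column names of the wt MET libraries differ slightly from their labelled line.

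The tools were edgeR 4.0.16 (with limma 3.58.1, in R 4.3.3). The filter filterByExpr, set to 10 counts and a total of 15, left 15067 genes holding 99.958% of counts. Libraries were scaled by TMM, and a robust quasi-likelihood model was fitted with a coefficient for each of the 8 conditions over all 16 libraries. p-values were adjusted by Benjamini-Hochberg over all genes tested (threshold 0.05), SEs are the log2 fold change divided by the square root of F, and tests are 2-sided. The mean response is the mean of the changes at 3, 6 and 12 h, and its adjusted p is that of the test of any change at these times. Group values are means ± SD. Gene lengths came from GENCODE annotation of hg38. Depth limits genes at a few counts per library: no change was given where a line had no more than 5 counts in any library, and a floor of 3 counts per library was used for bounds. The members, lists and promoter motifs were chosen with earlier results of these data known. Named genes were the 5 members and in each list and line the 3 genes with the largest absolute mean response among those called and averaging 1 or more log2 CPM. A gene that the rule also named is not reported here and was left out of the lists. Likeness was Pearson's r of log2 CPM (prior count of 2) over the 8 libraries of a line. Alternatives were DESeq2 1.42.0, its size factors in edgeR, other filters on low counts, a minimum fold change, an additive model, each line alone, a replicate block, other gene lengths, another prior count, and leaving out each library. The length of the canonical transcript was added after seeing the data. The model was tested on simulated data before use. Figures were drawn with matplotlib 3.10.9.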

Additional observations from a re-analysis of the deposited data

Results flagged for a closer look

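Of the 15 genes named above with more than 5 counts in some library of each line, 11 had responses to HGF that differed between the lines by the test of the difference over 3, 6 and 12 h (edgeR, adjusted over all genes), beside 37.6% of all genes. The genes had been named partly for the size of their responses. Each is given with its mean log2 response in the wt MET and then in the MET∆14 line. With 2 replicates in a condition, no single library was tested for standing apart from its group. Among the members, PLAU had responses of -0.17 and 0.85 (adjusted p = 5.66e-05), PLAUR of 0.70 and 1.25 (adjusted p = 0.000768), PLAT of -0.19 and 0.12 (adjusted p = 0.000492) and SERPINE2 of 0.28 and 0.72 (adjusted p = 0.0115). PLAT rose and then fell in the MET∆14 line, so its mean response there is small. Of the other plasminogen system genes, SERPINB8 had responses of 1.19 and 0.84 (adjusted p = 7.9e-06), VTN of -1.18 and -0.19 (adjusted p = 0.0265), SERPINB6 of -0.49 and -0.08 (adjusted p = 0.0115) and THBD of -0.43 and 0.52 (adjusted p = 6.9e-08). THBD, like PLAT, rose and then fell below its 0 h level in the MET∆14 line, and at 12 h its changes were 0.08 and -0.45. In the families of SERPINB2 and PLAUR, SERPINB1 had responses of -0.42 and 0.07 (adjusted p = 0.0347), SERPINB9 of 0.28 and 0.59 (adjusted p = 0.000641) and LYPD1 of 0.66 and -1.04 (adjusted p = 0.000176). The lines differ in more than the form of MET, and what sets their responses apart was not tested.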

How the results depend on the processing

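The numbers of members called (3 in the wt MET line, 5 in the MET∆14 line, 4 for the difference and 5 at 0 h) were the same with DESeq2, with its size factors in edgeR, with no filter on low counts and, in the single-line counts, with each line fitted alone. With at least 10 counts in every library they were 3, 4, 4 and 4, since SERPINB2 is then not tested. Over single libraries left out they were 3, 5, 3 to 4 and 5. The cause of a change under an alternative was not tested unless given.

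The additive model of line and time gives both lines 1 shared response, so by its construction the wt MET values moved toward the MET∆14 ones. PLAU went to 0.30 and PLAT to 0.0381 in the wt MET line, THBD to 0.14 in the wt MET line and LYPD1 to 0.0339 in the MET∆14 line, all reversed, and 5 members, 2 clade B serpins and 5 genes of the uPAR family were then called in the wt MET line. A required log2 change of at least 1 removed the calls of PLAU (-0.17), PLAUR (0.70) and SERPINE2 (0.28) in the wt MET line, of SERPINE2 in the MET∆14 line (0.72), of the difference for PLAUR (0.55) and SERPINE2 (0.44), and of PLAU at 0 h (0.44). It left 0 members in the wt MET line and 2 for the difference, 3, 2 and 4 plasminogen genes (wt MET, MET∆14, difference), 1 clade B serpin in the wt MET line and 1 for the difference, and 3 uPAR family genes in the MET∆14 line. With no filter on low counts 11 plasminogen genes were called in the MET∆14 line and 4 uPAR family genes for the difference. Over all genes, 8976 of 23045 were then called in the MET∆14 line and 6620 for the difference. With at least 10 counts in every library 3 uPAR family genes were called in the MET∆14 line, beside 7252 of 11349 genes. The filters change which genes are tested, so these counts are not directly comparable with those of the main fit.

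Leaving out each library in turn, the calls ranged over 4 to 9, 4 to 11 and 3 to 13 plasminogen genes (wt MET, MET∆14, difference), 2 to 4, 3 to 4 and 2 to 4 clade B serpins, and 3 to 5, 4 to 6 and 1 to 3 uPAR family genes. The difference for plasminogen genes was lowest without wt MET 12 h replicate 2 and highest without MET∆14 12 h replicate 2. The share of all genes called for the difference moved the same way, lower without the former library and higher without the latter than with all libraries. The mean response of SERPINE2 differed by 0.36 to 0.50 between the lines. Uncalled changes that crossed 0 were the mean PLAT response in the wt MET line (-0.364 to 0.0191), PLAT at 6 h there (-0.0857 to 0.289), PLAU at 6 h there (-0.0130 to 0.0743), SERPINE2 at 3 h there (-0.0375 to 0.109), and in the MET∆14 line the steps from 3 to 6 h of PLAU (-0.107 to 0.158) and PLAUR (-0.132 to 0.00612) and from 6 to 12 h of SERPINE2 (-0.129 to 0.0969). Of all other comparisons of a single gene's value with an alternative, 1664 kept direction and call or moved within the replicate spread, 53 lost the call, 15 gained it and 39 levels moved with the gene length or the prior count.

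Replicate numbers are shared by the groups, but the labels give no common batch or day. Deviations of same-numbered libraries correlated at -0.159 to 0.111, so the numbers were not taken as pairs. With the replicate block 5819 genes were called in the wt MET line (6079 without), 7857 in the MET∆14 line (8157) and 5377 for the difference (5660). Among the members, the block changed only the step of SERPINE2 from 3 to 6 h in the wt MET line (0.31, adjusted p = 0.0362, edgeR).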
